A study of Danio rerio with 20 samples.

Results

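The 8 libraries from zebrafish larvae raised in a mixture of persistent organic pollutants, 4 at each of 2 strengths, were pooled and set against 4 libraries from larvae kept in solvent alone, to ask which transcripts moved the same way at both strengths. These 12 libraries belong to a series of 20. All animals were of the wild-type AB strain, and exposure ran from 6 to 96 hours post fertilization (hpf), when whole larvae were collected. In POP10 the mixture stood at 10 times, and in POP70 at 70 times, the average blood levels of a Scandinavian population. PFOS10 and PFOS70 larvae, 4 libraries each, received only perfluorooctanesulfonic acid (PFOS), at the level it has in the corresponding mixture, and Control larvae received 0.1% dimethyl sulfoxide. The labels state that solvent level for Control only. Each library was made from 10 pooled larvae, and the labels do not tie the pools of a group to different clutches. The p-values therefore reflect differences among pools, which may be technical.

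Persistent organic pollutants are long-lived, mostly halogenated compounds that accumulate in animals and people. Several of them bind ligand-activated receptors, of which the aryl hydrocarbon receptor with its cytochrome P450 target cyp1a is the best known in fish, and some are developmental neurotoxicants. At 96 hpf the zebrafish larva has a beating heart, a functional retina and a swimming circuit, and it is finishing the build-up of liver and gut, so whole-larva RNA mixes many organs. A lower level of a transcript in such RNA can mean fewer cells of a type or less RNA per cell, and these cannot be told apart here.

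Poly-A RNA was sequenced, and levels are given as log2 RPM, the log2 of reads per 1000000 reads (RPM), with a difference of 1 on this scale being a doubling. Depth was 8572287 to 10339777 reads in the mixture libraries and 10144607 to 10945748 reads in Control. Every POP70 library was shallower than every Control library, whereas POP10 replicate 4 was deeper than Control replicate 4. Libraries of 1 group correlated at 0.983 to 0.988 in POP10, 0.973 to 0.984 in POP70 and 0.981 to 0.986 in Control. The first principal component of the 12 libraries held 25.1% of their variance, and the groups overlapped on it. Of 20 marker genes of larval organs, 19 had a tested row, from elavl3 of neurons to fabp10a of liver and krt4 of skin, and 0 of them passed the test between mixture and Control.

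The pooled comparison moved few genes past the threshold. lonrf1l, which encodes a protein with LON and RING finger domains of the kind found in ubiquitin ligases, rose in the mixture. six3b, a homeobox transcription factor of the embryonic forebrain and eye, fell, and so did fam46ab (tent5ab in current nomenclature), of the TENT5 family of non-canonical poly(A) polymerases. These were the 3 of 19289 genes tested that had an adjusted p under 0.05 (limma moderated test, Benjamini-Hochberg adjustment over all genes), which is 0.0156% of them. In the higher direction the share called was 0.00518% and in the lower direction 0.0104%. At an unadjusted p under 0.05 there were 2509 genes, or 13%, of which 1091 (5.66%) were higher and 1418 (7.35%) were lower in the mixture. Each of the 2509 lay on the same side of Control in POP10 and in POP70. Their choice by the mean of both levels against the same Control libraries makes this likely, so it supports nothing. By sign alone, 51.4% of all genes were higher in the mixture. The median standard error of a pooled difference was 0.117 on the log2 scale. It comes from the fit of all 20 libraries, so it is not what the 12 libraries resolve alone.

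lonrf1l lies on chromosome 8, 13769514 to 13788311, plus strand, of GRCz11. Its level was 6.59, 6.70, 6.67 and 6.58 log2 RPM in POP10 and 6.84, 6.96, 7.09 and 6.76 log2 RPM in POP70, against 6.33, 6.20, 6.25 and 6.45 log2 RPM in Control. All 8 mixture libraries were above all 4 Control libraries, and the POP70 libraries were above the POP10 ones. The pooled log2 difference was 0.47 ± 0.06 (SE, limma adjusted p = 0.0047), a 1.38-fold level, on 803 to 1165 reads per library. A second lonrf1l transcript with a longer span had 5.94 log2 RPM in the mixture and 5.55 in Control, a difference of 0.39. The joint span of both transcripts crosses the opposite-strand genes si:dkey-258f14.2 and si:dkey-258f14.7. Whether these overlap the tested transcript itself was not examined. As no strand setting of the counting is given, some of their reads may be counted for lonrf1l.

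six3b lies on chromosome 12, 25600685 to 25603341, plus strand. It stood at 6.03, 6.08, 5.97 and 6.09 log2 RPM in POP10 and at 5.66, 5.86, 6.00 and 5.74 in POP70, against 6.41, 6.42, 6.35 and 6.24 in Control. The groups did not overlap, with every mixture library below the lowest Control library. The log2 difference was -0.43 ± 0.07 (SE, limma adjusted p = 0.0242), which puts the mixture at 0.745 times the Control level. The gene has 1 transcript in the table and no overlapping gene.

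fam46ab lies on chromosome 23, 40275601 to 40286059, plus strand. Its values were 5.37, 5.18, 5.04 and 5.63 log2 RPM in POP10 and 4.74, 4.65, 4.80 and 4.46 log2 RPM in POP70, against 5.67, 5.90, 5.39 and 5.76 log2 RPM in Control. POP70 lay clear below Control, whereas POP10 replicate 4 fell inside the Control range. The pooled log2 difference was -0.70 ± 0.11 (SE, limma adjusted p = 0.0242), 0.615 times the Control level. The other transcript of fam46ab differed by -0.78 (3.78 log2 RPM in the mixture, 4.56 in Control).

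These calls come from a fit in which all 20 libraries share 1 estimate of spread. Fitted on the 12 mixture and Control libraries alone, 0 genes passed and 2605 had an unadjusted p under 0.05, with a smallest adjusted p of 0.0865. Without Control replicate 2 the count was also 0, without Control replicate 4 it was 9, and it was 1, lonrf1l, without Control replicate 1, without POP10 replicate 1, 2 or 3, or without POP70 replicate 2 or 4. Fitting voom on the recovered reads, which models depth, called 4 genes, these 3 and the low-abundance si:dkey-22i16.9.

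**Figure D1:**
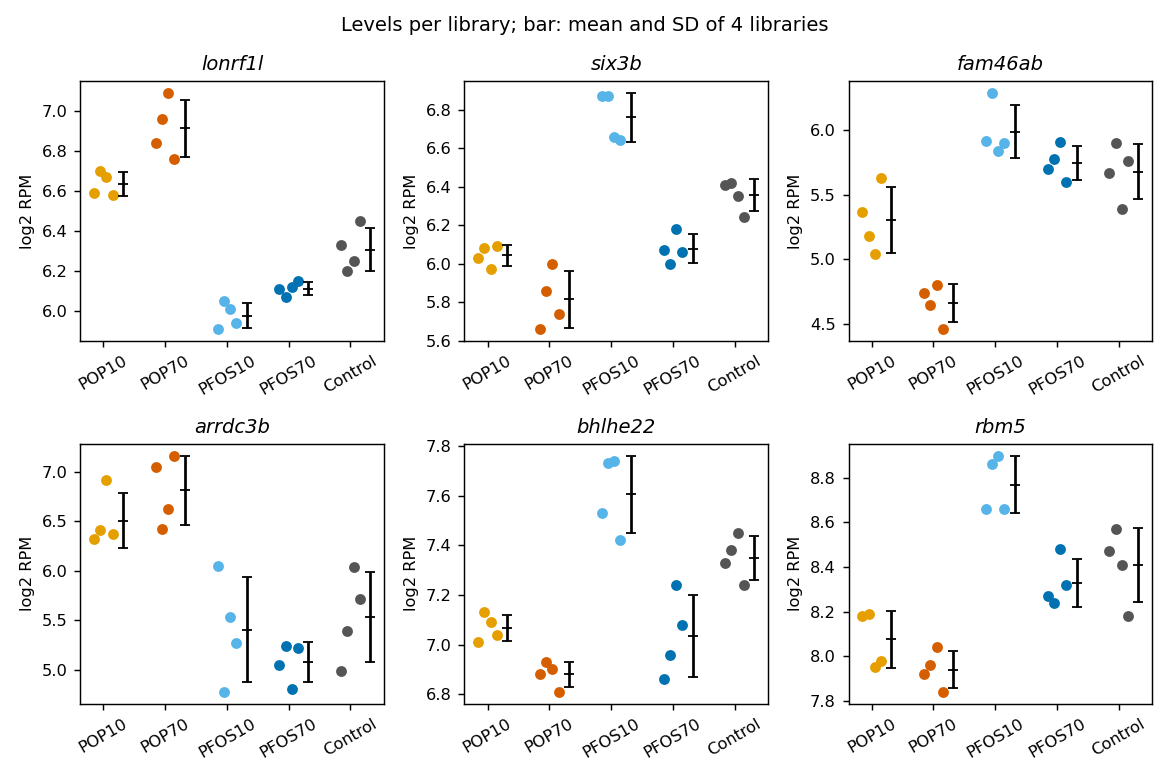
Levels in log2 RPM (vertical axis) of the 3 genes called in the pooled comparison and of the next 3 named genes by p, for each library of POP10, POP70, PFOS10, PFOS70 and Control. Points are libraries and the bar is the mean with SD of 4 libraries. All mixture points of lonrf1l lie above, and all of six3b lie below, the Control points.

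A change at each strength by itself was a stricter question. A gene counted where both levels differed from Control in the same direction and the larger of its p-values passed after adjustment. By limma 0 genes (0%) met this, with 729 genes (3.78%) at an unadjusted p under 0.05 and 0 genes by voom on recovered reads. The POP10 and POP70 comparisons use the same 4 Control libraries. lonrf1l differed from Control by 0.33 ± 0.07 in POP10 (limma adjusted p = 0.51) and by 0.61 ± 0.07 in POP70 (adjusted p = 0.000776). six3b differed by -0.31 ± 0.08 in POP10 (limma adjusted p = 0.51) and by -0.54 ± 0.08 in POP70 (adjusted p = 0.00629). fam46ab differed by -0.38 ± 0.13 in POP10 (limma adjusted p = 0.51) and by -1.02 ± 0.13 in POP70 (adjusted p = 0.00116). So each of the 3 called genes passed at the stronger mixture and not at the weaker one.

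Whether the strengths themselves differ was tested as POP70 minus POP10. By limma 0 genes (0%) passed. At an unadjusted p under 0.05 there were 580 genes (3.01%), and voom also called 0. fam46ab had the log2 difference -0.64 ± 0.13 (limma unadjusted p = 7.5e-05, adjusted p = 1.0), lonrf1l had 0.28 ± 0.07 (unadjusted p = 0.000978) and six3b had -0.23 ± 0.08 (unadjusted p = 0.00836). The same was seen for six3a, the paralog of six3b, at -0.26 ± 0.08 (unadjusted p = 0.0029), which also did not pass. Of the 28 leading genes of the pooled comparison, taken as the 14 of smallest p in each direction with a gene symbol and a mean of at least 3 log2 RPM, 21 had a larger difference in POP70 than in POP10 and 6 had an unadjusted p under 0.05 between the strengths. These genes were chosen on the pooled contrast, so their counts describe them and support nothing.

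**Figure D2:**
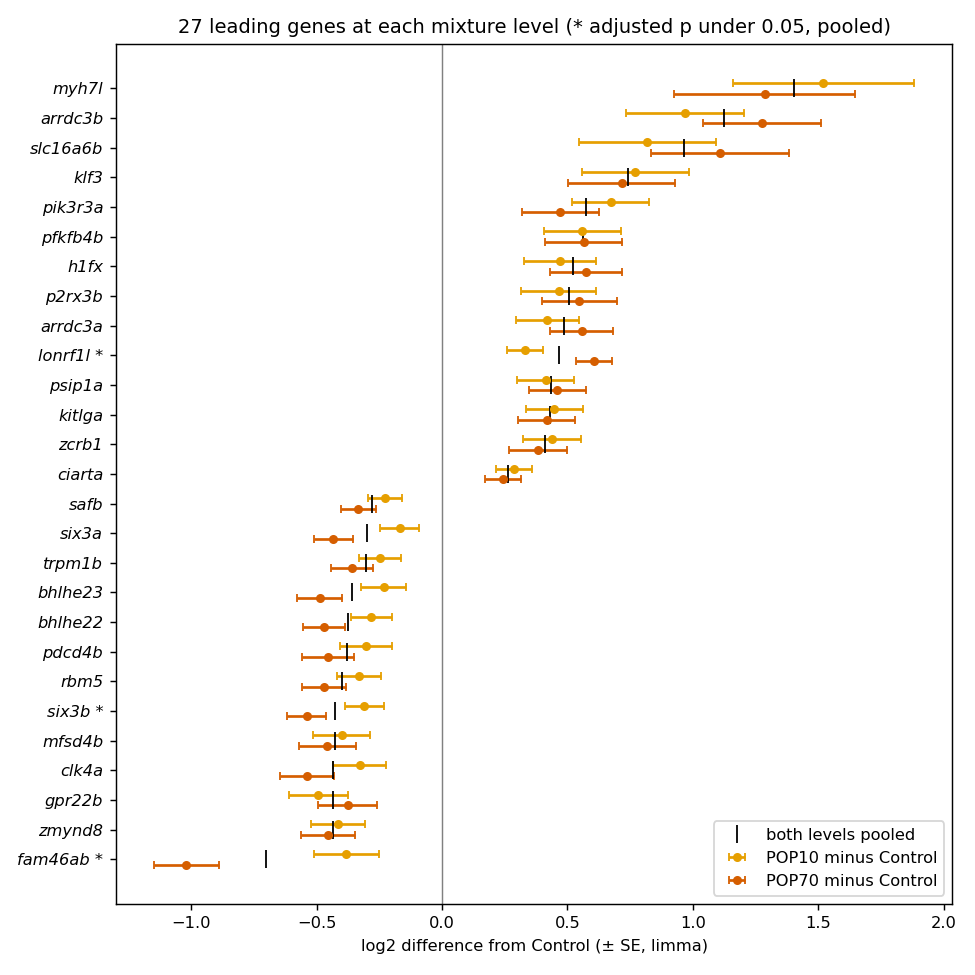
Log2 difference from Control (horizontal axis, ± SE from limma) for 27 of the 28 leading genes of the pooled comparison (vertical axis), at POP10 and at POP70, with the pooled value as a bar. The 3 starred genes are those with an adjusted p under 0.05, and each of the 27 lies on the same side of 0 at both levels, as its choice by pooled p makes likely.

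Among genes that did not pass, arrdc3b had the smallest p in the higher direction. arrdc3b and arrdc3a encode alpha-arrestins, which link membrane proteins to ubiquitin ligases. arrdc3b had 6.32, 6.41, 6.92 and 6.37 log2 RPM in POP10 and 7.05, 6.42, 6.62 and 7.16 in POP70, against 4.99, 5.39, 6.04 and 5.72 in Control. That is a log2 difference of 1.12 ± 0.20 (SE, limma adjusted p = 0.0947), 2.18-fold, with no overlap of the groups. Its paralog arrdc3a had 7.20, 7.25, 7.40 and 7.28 log2 RPM in POP10 and 7.57, 7.14, 7.35 and 7.63 in POP70, against 6.65, 6.78, 7.03 and 7.01 in Control, again without overlap (0.49 ± 0.11, limma adjusted p = 0.256). Of 7 alpha-arrestin genes tested, 4 (57.1%) had an unadjusted p under 0.05 in the higher direction, against 5.66% of all genes. These were the arrdc3b and arrdc3a just given, arrdc2 (0.31 ± 0.13) and txnipa (0.17 ± 0.08). In the lower direction it was 1 (14.3%), txnipb (-0.32 ± 0.14), against 7.35% of all genes. The median over the 7 was 0.21, against 0.01 over all genes, and 0 of them were called. Without POP70 replicate 1, or without Control replicate 1, 2 or 3, the 4 became 2.

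Other leading genes in the higher direction came from several functions. pfkfb4b, which sets the level of the glycolytic regulator fructose 2,6-bisphosphate, differed by 0.56 ± 0.13 (SE, limma adjusted p = 0.265). slc16a6b, of the monocarboxylate transporter family, differed by 0.96 ± 0.24 (limma adjusted p = 0.277), and all its mixture libraries lay above Control. pik3r3a, a regulatory subunit of phosphoinositide 3-kinase, differed by 0.57 ± 0.13, and the transcriptional repressor klf3 by 0.74 ± 0.19. The remaining ones in this direction were the chromatin-bound factor psip1a (0.44 ± 0.10), the linker histone h1fx (0.52 ± 0.12), the Kit ligand kitlga (0.43 ± 0.10), the minor-spliceosome protein zcrb1 (0.41 ± 0.10), the clock repressor ciarta (0.26 ± 0.06), the ATP-gated channel p2rx3b (0.51 ± 0.13) and the myosin heavy chain myh7l (1.4 ± 0.31). Their limma adjusted p-values were 0.256 to 0.303. h1fx shares its position with arpc4, and the joint transcript spans of zcrb1 and pik3r3a cross genes on the other strand. Their reads may therefore not be fully separated from those neighbours.

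In the lower direction, bhlhe22 and rbm5 had the smallest p among named genes that did not pass. bhlhe22, a basic helix-loop-helix factor of interneurons of retina and spinal cord in mouse, had 7.01, 7.13, 7.09 and 7.04 log2 RPM in POP10 and 6.88, 6.93, 6.90 and 6.81 in POP70, against 7.33, 7.38, 7.45 and 7.24 in Control. The groups did not overlap, and the log2 difference was -0.38 ± 0.07 (SE, limma adjusted p = 0.0947). Its relative bhlhe23 had 6.13, 6.14, 6.01 and 6.17 log2 RPM in POP10 and 5.90, 5.83, 5.95 and 5.74 in POP70, against 6.45, 6.38, 6.47 and 6.08 in Control, where replicate 4 lay among the mixture values (-0.36 ± 0.08, limma adjusted p = 0.256). six3a differed by -0.30 ± 0.07 (limma adjusted p = 0.256), with 5.89 to 6.36 log2 RPM over the mixture libraries, all below the Control range of 6.38 to 6.58. trpm1b, a channel whose mammalian relative serves ON bipolar cells of the retina, differed by -0.30 ± 0.07 and also showed no overlap. Its other transcript differed less, by -0.14 (6.38 log2 RPM in the mixture, 6.51 in Control).

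The splicing-related genes in this group were rbm5, an RNA-binding regulator of exon choice, clk4a, a kinase of serine-arginine-rich splicing factors, and safb, a scaffold attachment factor that binds RNA. rbm5 had 8.18, 8.19, 7.95 and 7.98 log2 RPM in POP10 and 7.92, 7.96, 8.04 and 7.84 in POP70, against 8.47, 8.57, 8.41 and 8.18 in Control. The highest POP10 library lay just above Control replicate 4 and below the other Control libraries (-0.40 ± 0.08, limma adjusted p = 0.0947). clk4a differed by -0.43 ± 0.09 and safb by -0.28 ± 0.06 (limma adjusted p = 0.256 for each). Others in this direction were the chromatin reader zmynd8 (-0.43 ± 0.09), the translation inhibitor pdcd4b (-0.38 ± 0.09), the orphan receptor gpr22b (-0.43 ± 0.10) and the transporter mfsd4b (-0.43 ± 0.10), with limma adjusted p of 0.256 or 0.265. Over all genes, mixture and Control libraries did not overlap in 105 genes with the mixture higher (0.544%) and in 192 with the mixture lower (0.995%). Of the 28 leading genes 13 were among these, which follows from their choice on the same values and is no support.

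Gene lists gave the wider picture, described here by counts at an unadjusted p and by medians, with no test of the list. Over all genes tested, 5.66% were higher and 7.35% lower at that p, and list shares are to be read beside these. Of 30 lists, 1 had a called member, the list of eye and forebrain transcription factors with six3b. In that list 11 of 41 genes tested (26.8%) had an unadjusted p under 0.05 in the lower direction and 0 in the higher one. Of its differences 36 of 41 were negative, and the median was -0.16 (-0.10 in POP10 and -0.22 in POP70). Without Control replicate 3 the 11 became 7. isl1, a LIM-homeobox factor of motor neurons and retina, had 7.06, 7.23, 7.20 and 7.08 log2 RPM in POP10 and 7.11, 7.10, 7.0 and 7.09 in POP70, against 7.41, 7.42, 7.49 and 7.18 in Control (-0.27 ± 0.06, limma adjusted p = 0.266). rx3, needed for the eye field in zebrafish, had a mixture mean of 3.98 log2 RPM and a Control mean of 4.50 (-0.52 ± 0.15), and did not pass (limma adjusted p = 0.318).

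Neuronal lists leaned the same way. Of 58 neuron and synapse genes, 28 (48.3%) had an unadjusted p under 0.05 in the lower direction, 56 of 58 differences were negative, and the median was -0.22. The count was 15 without POP70 replicate 1, 11 without Control replicate 3 and 15 without Control replicate 4. vamp1, a synaptic vesicle SNARE, had 7.67, 7.65, 7.51 and 7.65 log2 RPM in POP10 and 7.39, 7.71, 7.69 and 7.30 in POP70, against 7.81, 7.99, 7.91 and 7.84 in Control. pcloa, a scaffold of the presynaptic active zone, had 7.98, 7.96, 7.95 and 8.12 log2 RPM in POP10 and 7.66, 8.0, 8.11 and 7.76 in POP70, against 8.26, 8.19, 8.23 and 8.19 in Control. Neither gene's groups overlapped, and the log2 differences were -0.32 ± 0.09 for vamp1 and -0.28 ± 0.09 for pcloa (limma adjusted p = 0.316 and 0.323). The mean level of the 58 genes was 6.57 to 6.92 log2 RPM over the mixture libraries and 6.93 to 7.10 over Control, and the pan-neuronal marker elavl3 differed by -0.16 (limma adjusted p = 0.462). Whether a smaller share of neural RNA in the pools plays a part in the neural lists was not tested.

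Of 77 glutamate, GABA and glycine signalling genes, 23 (29.9%) had an unadjusted p under 0.05 in the lower direction and 72 were negative (median -0.17). This count was 13 without POP10 replicate 2, 14 without POP70 replicate 1, 11 without Control replicate 3 and 13 without Control replicate 4. grm6b, a metabotropic glutamate receptor gene, differed by -0.32 ± 0.08 (limma adjusted p = 0.283), the NMDA receptor subunit grin2ab by -0.47 ± 0.14 and the GABA-A receptor subunit gabra4 by -0.60 ± 0.21. Neural basic helix-loop-helix factors had 7 of 29 (24.1%) lower and 1 (3.45%) higher (median -0.08). Voltage-gated calcium channel subunits had 6 of 45 (13.3%) lower and 1 (2.22%) higher (median -0.12). The 6 became 2 without Control replicate 3. Opsins and visual cycle genes had 12 of 63 (19%) lower and 1 (1.59%) higher. Their median was -0.10 pooled but -0.01 in POP10 and -0.22 in POP70. Whether this list differs between the strengths was not tested. The count of 12 was 2 without Control replicate 2 and 3 without Control replicate 4. It was 5 to 7 without any of POP10 replicates 1 to 3 or POP70 replicates 1 and 4, and 20 without POP10 replicate 4.

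Immediate early genes, whose transcription follows neuronal activity and other stimuli within minutes, had 10 of 39 (25.6%) at an unadjusted p under 0.05 in the lower direction and 1 (2.56%) in the higher. Their median was -0.14 pooled, -0.04 in POP10 and -0.18 in POP70. npas4a had 4.62, 4.13, 4.13 and 4.98 log2 RPM in POP10 and 3.67, 4.13, 4.2 and 2.98 in POP70, against 5.56, 4.80, 4.80 and 5.17 in Control. One POP10 library lay inside the Control range, and the log2 difference was -0.97 ± 0.37 (limma adjusted p = 0.333). egr4 differed by -0.79 ± 0.24 and egr1 by -0.59 ± 0.20, whereas junba (-0.47 ± 0.13) and ier5l (-0.23 ± 0.06) showed no overlap of mixture and Control. The limma adjusted p of these 4 genes was 0.271 to 0.332.

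In the lists of the following genes, more members had an unadjusted p under 0.05 in the higher direction than in the lower one. Of 81 cytosolic ribosomal protein genes, 62 (76.5%) had an unadjusted p under 0.05 in the higher direction and 80 differences were positive, with a median of 0.18. After quantile normalization 22 were higher, at a median of 0.11, and with equal library medians 31. The mean level of the list was 10.60, 10.55, 10.57 and 10.56 log2 RPM in POP10 and 10.66, 10.39, 10.41 and 10.57 in POP70, against 10.42, 10.43, 10.28 and 10.32 in Control. POP70 replicates 2 and 3 thus lay within the Control range, and the count was 16 without Control replicate 3, 29 without Control replicate 4 and 37 without POP70 replicate 1. rpl22l1 differed by 0.24 ± 0.07 and rpl37 by 0.27 ± 0.09, and 0 members were called. Members of this list move together from library to library, so their number is not a number of independent calls.

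Cardiac muscle genes had 13 of 31 (41.9%) at an unadjusted p under 0.05 in the higher direction and 0 in the lower, with a median of 0.25. myl7, the regulatory myosin light chain of the heart, had 4.91, 4.69, 4.55 and 3.81 log2 RPM in POP10 and 5.47, 4.48, 3.39 and 2.72 in POP70, against 2.94, 2.92, 2.66 and 2.33 in Control. Of the 8 mixture libraries, POP70 replicate 4 fell inside the Control range, and the mixture varied far more (SD 0.89) than Control (SD 0.29). The log2 difference was 1.54 ± 0.44 (limma adjusted p = 0.318). The troponin gene tnnc1a, at a mixture mean of 1.53 and a Control mean of -0.51 log2 RPM, on 9 to 75 reads per mixture library and 6 to 10 reads per Control library, differed by 2.04 ± 0.60 without overlap, and myh7 by 0.28 ± 0.09 without overlap (limma adjusted p = 0.318 and 0.323). Among these 12 libraries, tnnc1a reached the filter level of 0 log2 RPM only in the mixture ones. Its difference therefore supports nothing, and it is among the 13 genes counted. Skin keratin and keratinocyte genes had 4 of 34 (11.8%) in the higher direction (median 0.26), and embryonic globin and erythrocyte genes 6 of 21 (28.6%, median 0.18). Cell cycle genes had 8 of 59 (13.6%, median 0.13) and skeletal muscle contraction genes 11 of 66 (16.7%), with 2 (3.03%) lower (median 0.08). The shares over all genes were 5.66% higher and 7.35% lower. Leaving out 1 library took these counts to 0 to 8 for skin, 2 to 8 for globins, 2 to 15 for cell cycle and 8 to 15 for skeletal muscle. The lowest values came without Control replicate 3 for skin and globins, also without Control replicate 4 for globins, and without Control replicate 1 for cell cycle, and the highest came without POP70 replicate 4 for skin and POP70 replicate 2 for cell cycle.

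**Figure D3:**
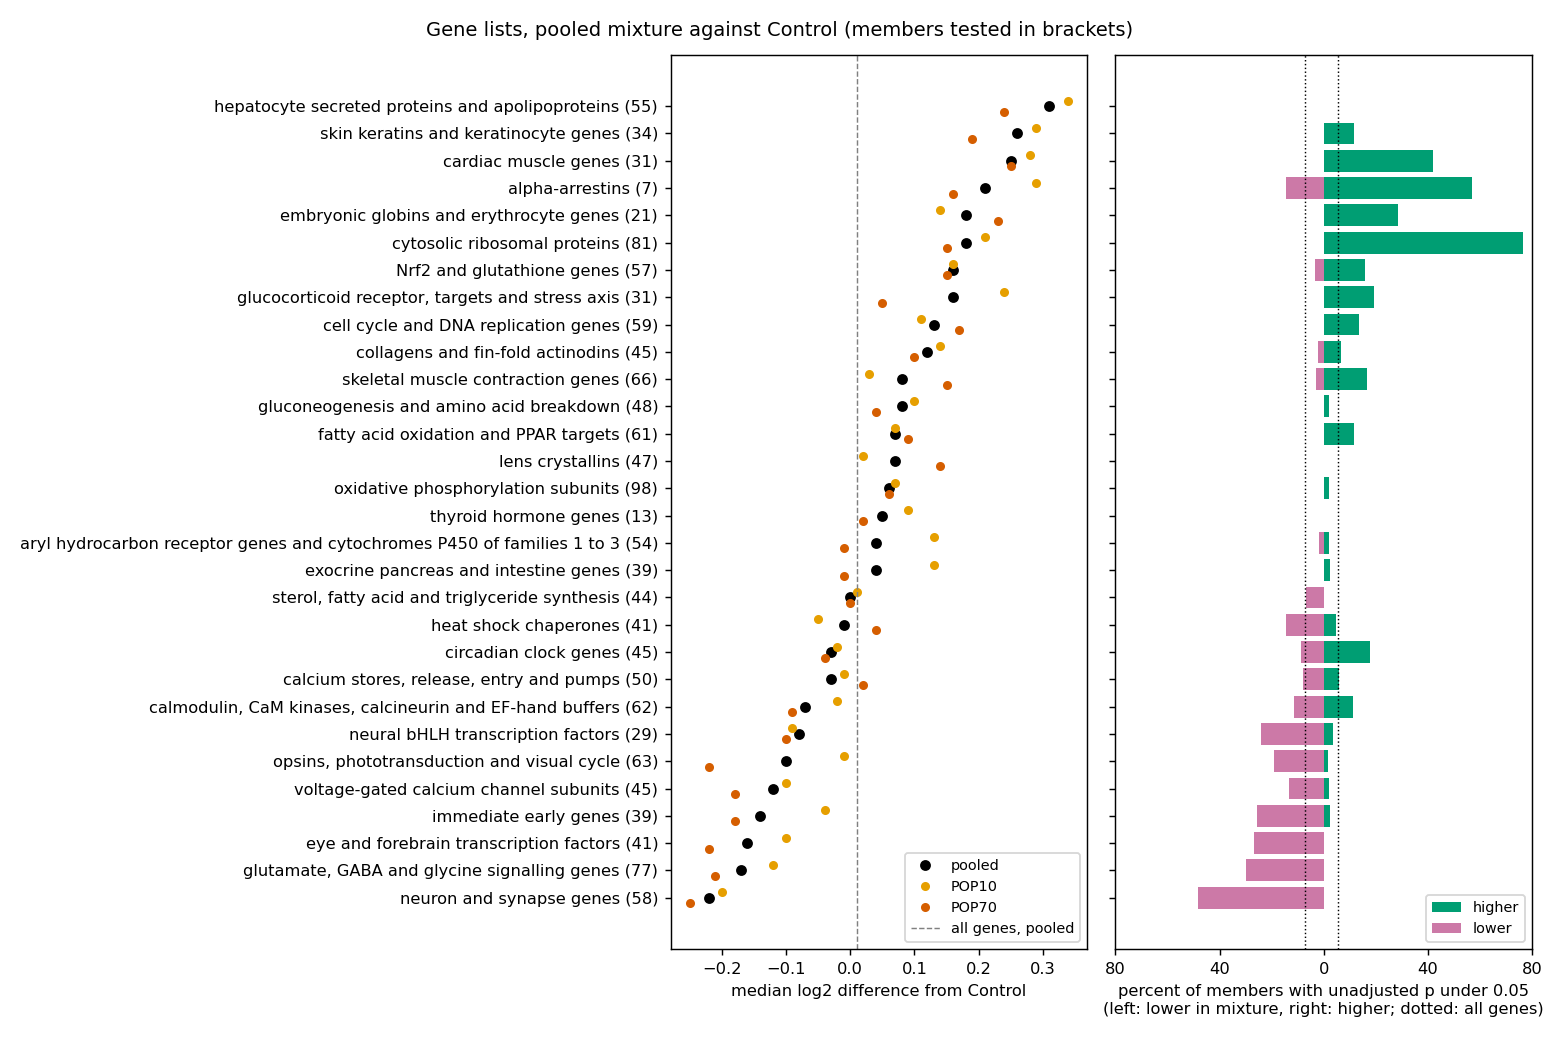
Left, median log2 difference from Control (horizontal axis) of each of 30 gene lists (vertical axis, members tested in brackets) for the pooled mixture, POP10 and POP70, with the median of all genes as a dashed line. Right, the percent of members with an unadjusted p under 0.05, lower to the left and higher to the right, with dotted lines at the shares of all genes. Neuron and synapse genes reach 48.3% lower and ribosomal protein genes 76.5% higher.

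The next lists hold receptor pathways through which such pollutants are known to act. Aryl hydrocarbon receptor genes and cytochromes P450 of families 1 to 3 had 1 of 54 (1.85%) in each direction and a median of 0.04. With 1 library left out the higher count was 0 (without Control replicate 1 or 3) to 4 (without Control replicate 2), and 3 without POP70 replicate 4. It was 2 without POP10 replicate 3 or 4, POP70 replicate 3 or Control replicate 4, and the lower count was 0 without Control replicate 3. The median was -0.04 to 0.15 and turned sign without POP70 replicate 1 or 2 or Control replicate 3. cyp1a, the classical target of dioxin-like compounds, had 4.06, 3.40, 3.44 and 2.92 log2 RPM in POP10 and 3.86, 3.51, 2.76 and 2.90 in POP70, against 2.76, 3.28, 2.82 and 3.73 in Control. The ranges overlapped, and the log2 difference was 0.21 ± 0.25 (limma adjusted p = 0.741), or 0.08 (without Control replicate 1) to 0.40 (without Control replicate 4) for cyp1a with 1 library left out. cyp1b1 differed by -0.10 ± 0.15 (-0.19 without Control replicate 2 and -0.02 without Control replicate 3) and the gut and liver enzyme cyp3a65 by 0.18 ± 0.44, with Control itself running over 4.37 to 6.53 log2 RPM for cyp3a65. Neither passed. Thyroid hormone genes had 0 of 13 in either direction.

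The antioxidant Nrf2 and glutathione list had 9 of 57 (15.8%) higher and 2 (3.51%) lower (median 0.16). nfe2l2a, the gene of Nrf2 itself, differed by 0.37 ± 0.14 (limma adjusted p = 0.333). That 9 was 2 without Control replicate 3, 3 without POP70 replicate 1, 4 without POP10 replicate 3, 15 without POP70 replicate 3 and 18 without Control replicate 2. Fatty acid oxidation genes had 7 of 61 (11.5%) higher (median 0.07), or 2 without Control replicate 3. Sterol and fatty acid synthesis genes had 3 of 44 lower (median 0), a share of 6.82% against 7.35% of all genes. The 3 became 5 without POP10 replicate 3 or 4 or Control replicate 1 and 6 without POP70 replicate 2, and the sign of that median turned in 6 alternatives. The fatty acid synthase gene fasn had 6.99, 7.01, 7.23 and 7.41 log2 RPM in POP10 and 6.76, 7.38, 7.38 and 7.09 in POP70, all below the Control values of 7.5, 7.48, 7.49 and 7.62 (-0.36 ± 0.11, limma adjusted p = 0.318). Heat shock chaperones had 2 of 41 (4.88%) higher and 6 (14.6%) lower, against 5.66% and 7.35% of all genes. Oxidative phosphorylation subunits had 2 of 98 (2.04%) higher, collagens and actinodins 3 of 45 (6.67%) higher and 1 (2.22%) lower, and lens crystallins 0 of 47. Apart from the chaperones counted lower, the shares of the synthesis, chaperone, oxidative phosphorylation, collagen and crystallin lists lay near or under those of all genes. The Nrf2 and glutathione list (15.8%) and the fatty acid oxidation list (11.5%) lay above the 5.66% of all genes higher. Of the oxidative phosphorylation differences 84 of 98 were positive, at a median of 0.06. With 1 library left out the chaperones counted lower were 2 (without POP10 replicate 4) to 8, and the collagens counted higher were 1 (without Control replicate 3) to 10 (without POP10 replicate 4). The oxidative phosphorylation subunits counted higher were 1 without Control replicate 3, 4 without POP10 replicate 3 and 5 without Control replicate 1 or 4, and those counted lower were 3 without POP70 replicate 2.

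Of the calcium lists, only that of stores, release, entry and pumps stood near the background, which is 5.66% of all genes higher and 7.35% lower. Genes of calcium stores, release, entry and pumps had 3 of 50 (6%) higher and 4 (8%) lower, with a median of -0.03 that turned to 0.01 after quantile normalization. Calmodulin, CaM kinase, calcineurin and EF-hand genes had 7 of 62 (11.3%) in each direction, above the background in both. The voltage-gated channel subunits given earlier had 13.3% lower. Without Control replicate 3 these counts were 0 higher and 2 lower for the stores list, and 3 higher and 2 lower for the EF-hand list. camk2b1, a CaM kinase II subunit, lay at 8.40 to 8.67 log2 RPM over the mixture and 8.72 to 8.75 over Control, without overlap (-0.19 ± 0.06, limma adjusted p = 0.318). The skeletal muscle genes ryr1b (-0.11 ± 0.08), atp2a1 (-0.21 ± 0.10) and cacna1sb (-0.07 ± 0.09) and the muscle parvalbumin pvalb4 (0.26 ± 0.08) did not pass, with limma adjusted p of 0.323 to 0.748. The joint span of all atp2a1 transcripts crosses the hsp70.1, hsp70.2 and hsp70.3 genes, and whether these overlap the tested transcript was not examined.

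Glucocorticoid signalling turns on fkbp5, a co-chaperone of the glucocorticoid receptor and a textbook target of it. fkbp5 had 9.12, 8.72, 8.79 and 8.65 log2 RPM in POP10 and 8.59, 8.81, 8.68 and 8.35 in POP70, against 7.26, 7.83, 7.46 and 8.82 in Control. Control replicate 4 lay inside the mixture range, and the other Control libraries lay below it. The log2 difference was 0.87 ± 0.22 (limma adjusted p = 0.305), and without Control replicate 4 it was 1.19 ± 0.19 (adjusted p = 0.015). With each library left out in turn it was 0.67 to 1.19, with limma adjusted p of 0.015 to 0.672. fkbp5 passed in 1 of 27 alternatives, the fit without Control replicate 4. The receptor gene nr3c1 differed by -0.01 ± 0.06, with a sign that turned after quantile normalization and without POP10 replicate 1 or Control replicate 2. klf9, another target, differed by 0.40 ± 0.23 (0.25 without Control replicate 3 and 0.71 without Control replicate 4) and the gluconeogenic pck1 by 0.13 ± 0.40. The sign of pck1 turned without POP70 replicate 2 or Control replicate 1 or 3. hsd3b1, of steroid synthesis, differed by 1.59 ± 0.35 (limma adjusted p = 0.256), on only 5 to 27 reads per mixture library and 4 to 6 per Control library. Its lowest mixture library, at -0.85 log2 RPM, lay barely above its highest Control library, at -0.87. hsd3b1 met the filter of 4 libraries at 0 log2 RPM only with its mixture libraries counted, so its difference supports nothing. In all, 6 of 31 genes (19.4%) of this list, hsd3b1 among them, had an unadjusted p under 0.05 in the higher direction and 0 in the lower. The shares over all genes were 5.66% and 7.35%, and the 6 became 4 to 9 with 1 library left out. cyp21a2 and pomca, also counted, were low, with Control means of 0.79 and 1.85 log2 RPM. For sgk2b, counted too, Control replicate 4 (5.34 log2 RPM) lay inside the mixture range, as for fkbp5. The list median was 0.16, with 0.24 in POP10 and 0.05 in POP70.

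Control replicate 4 also stood with the mixture for cyp24a1, the vitamin D 24-hydroxylase, a gene singled out after its values were seen. cyp24a1 had 6.70, 6.17, 6.16 and 6.32 log2 RPM in POP10 and 6.40, 6.31, 5.66 and 6.12 in POP70, against 4.56, 4.97, 4.62 and 7.01 in Control. Its log2 difference was 0.94 ± 0.32 (limma adjusted p = 0.332), and without that library it was 1.52 ± 0.19 (adjusted p = 0.00191). The 9 genes called without Control replicate 4 were cyp24a1, lonrf1l, pfkfb4b, fkbp5 and pik3r3a, higher in the mixture, and rbm5, six3b, bhlhe23 and safb, lower. cyp24a1 and pfkfb4b were then also called at both levels. Control replicate 4 was singled out on these same values, so the p-values and calls without it support nothing. The same library had the highest mean level of the hepatocyte list, 5.69 log2 RPM, against 4.18 to 4.56 in the other Control libraries and 4.40 to 5.44 over the mixture. With it, 0 of 55 hepatocyte genes had an unadjusted p under 0.05 at a median of 0.31, and without it 27 were higher at a median of 0.70. For gluconeogenesis and amino acid breakdown the counts were 1 of 48 with it and 13 without it. Nothing in the labels sets this library apart, and why it differs was not tested.

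**Figure D4:**
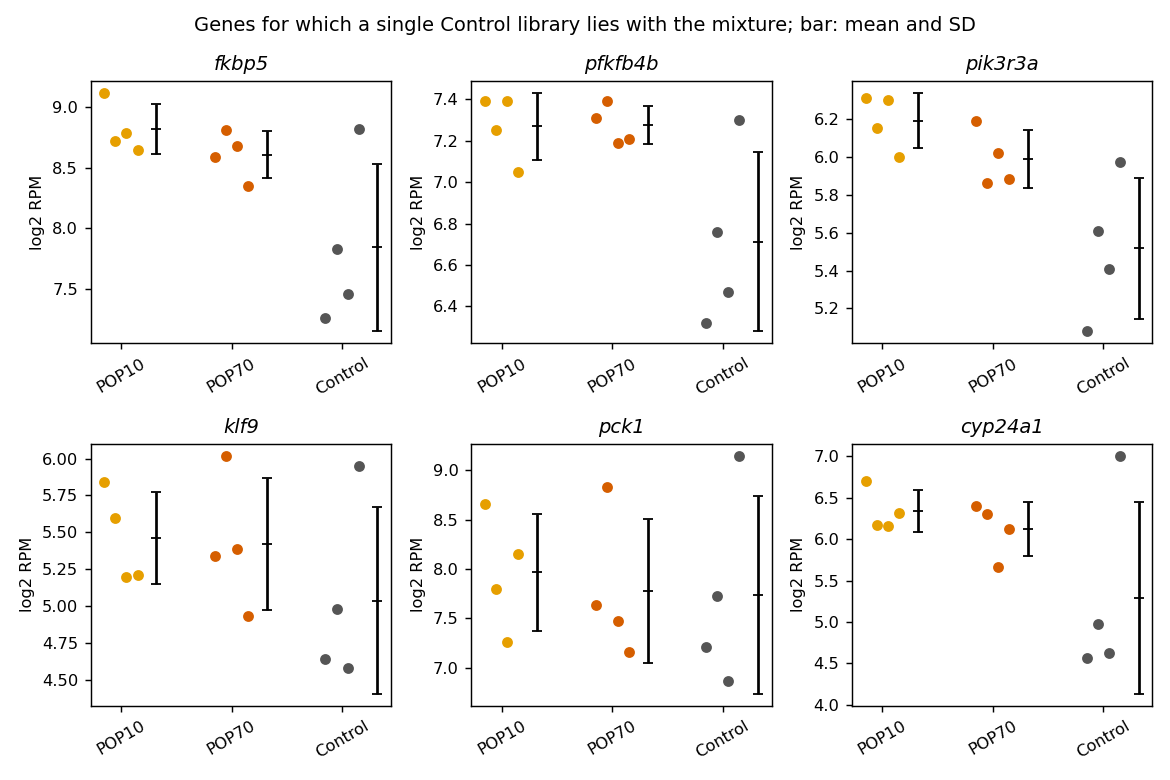
Levels in log2 RPM (vertical axis) of 6 genes in each library of POP10, POP70 and Control, with the mean and SD of 4 libraries as a bar. The genes were picked after their values were seen. In each panel the highest Control point is replicate 4, and for cyp24a1 it stands at 7.01 against 4.56 to 4.97 for the other Control points.

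Circadian clock genes had 8 of 45 (17.8%) at an unadjusted p under 0.05 in the higher direction and 4 (8.89%) in the lower, at a median of -0.03. The 8 became 5 without Control replicate 1, and the 4 became 1 without Control replicate 2 and 7 without POP70 replicate 2. ciarta had 7.35, 7.25, 7.41 and 7.43 log2 RPM in POP10 and 7.39, 7.35, 7.32 and 7.20 in POP70, against 6.92, 7.07, 7.13 and 7.17 in Control, without overlap. nr1d2a, of the REV-ERB repressors, differed by 0.46 ± 0.14 and per1a by 0.47 ± 0.16, and in both Control replicate 4 was the highest Control library, at 8.30 log2 RPM for nr1d2a and 6.25 for per1a. The nfil3, nfil3-5 and nfil3-6 genes, which encode bZIP repressors of clock output, had positive differences, nfil3 at 0.26 ± 0.07, nfil3-5 at 0.29 ± 0.10 and nfil3-6 at 1.05 ± 0.28, with limma adjusted p of 0.315 to 0.333. The labels give no hour of collection by library.

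The mixture was last set against PFOS alone. Here POP10 and POP70 are pooled while PFOS70 and PFOS10 each hold 1 level, so 4 of the 8 mixture libraries are at an unmatched level, and level and composition cannot be told apart. Against PFOS70, 65 genes (0.337%) passed by limma, 33 (0.171%) higher and 32 (0.166%) lower in the mixture. This split was 94 higher and 38 lower after quantile normalization, and 52 and 20 with library medians made equal. Leaving out 1 library gave 39 (without POP70 replicate 4) to 153 genes (without POP70 replicate 2), with 43 without POP10 replicate 3 and 42 without POP10 replicate 4. lonrf1l had the smallest p, at 6.58 to 7.09 log2 RPM in the mixture against 6.11, 6.07, 6.12 and 6.15 in PFOS70, with no overlap (log2 difference 0.66 ± 0.06, limma adjusted p = 1.51e-05). fam46ab differed by -0.77 ± 0.11 (limma adjusted p = 0.00299), with PFOS70 at 5.70, 5.78, 5.91 and 5.60 log2 RPM. six3b did not pass here. Its values in PFOS70 were 6.07, 6.00, 6.18 and 6.06 log2 RPM, and the log2 difference was -0.15 ± 0.07 (limma adjusted p = 0.329), so that a difference between the mixture and this PFOS level was not shown for six3b. Nor was it shown for bhlhe22 (-0.06 ± 0.07), bhlhe23 (-0.10 ± 0.08), six3a (-0.05 ± 0.07) or trpm1b (0.05 ± 0.07), with limma adjusted p of 0.574 to 0.791. The median difference from PFOS70 was 0.03 for eye and forebrain factors and -0.06 for neuron and synapse genes. It was -0.02 for cardiac muscle and 0.21 for ribosomal protein genes, against -0.04 over all genes.

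arrdc3b was higher in the mixture than in PFOS70 by 1.58 ± 0.20 (limma adjusted p = 0.00117) and arrdc3a by 0.66 ± 0.11 (adjusted p = 0.00902). nfil3 had 5.08 to 5.42 log2 RPM in the mixture and 4.68 to 4.78 in PFOS70 (0.54 ± 0.07, limma adjusted p = 0.00117). nfil3-6 had 4.82 to 6.42 in the mixture and 3.94 to 4.48 in PFOS70 (1.38 ± 0.28, limma adjusted p = 0.0292), and nfil3-5 had 6.54 to 7.03 in the mixture and 6.16 to 6.38 in PFOS70 (0.51 ± 0.10, adjusted p = 0.0307). No mixture library overlapped PFOS70 for these 3 genes. Other clock-related or metabolic genes that passed were ciarta (0.43 ± 0.06), pfkfb4b (0.63 ± 0.13) and slc16a6b (1.12 ± 0.24), together with the Krüppel-like factor klf11a (0.69 ± 0.12). For each gene of this paragraph the Control mean lay between those of PFOS70 and the mixture. Mean levels of nfil3 were 4.73 log2 RPM in PFOS70, 5.01 in Control and 5.27 in the mixture, and those of klf11a were 5.46, 5.84 and 6.15. Against Control klf11a differed by 0.31 ± 0.12 and did not pass (limma adjusted p = 0.338).

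Genes lower in the mixture than in PFOS70 included jun, an immediate early transcription factor, at 6.70 to 6.96 log2 RPM in the mixture and 7.22 to 7.34 in PFOS70 (-0.45 ± 0.07, limma adjusted p = 0.00299). The collagen chaperone serpinh1b differed by -0.97 ± 0.16, the heat shock cochaperone dnajb1b by -0.69 ± 0.13, and the hairy-related repressors her6 by -0.46 ± 0.08 and her9 by -0.36 ± 0.08. mfsd4b (-0.46 ± 0.10) passed as well. Against Control the mixture differed by -0.16 ± 0.07 for jun, -0.21 ± 0.16 for serpinh1b and -0.47 ± 0.13 for dnajb1b. For her6 it differed by -0.21 ± 0.08 and for her9 by -0.12 ± 0.08, and none of these genes passed against Control. Mean levels of serpinh1b were 7.29 log2 RPM in PFOS70, 6.53 in Control and 6.32 in the mixture, and those of jun were 7.27, 6.98 and 6.82. The forebrain gene foxg1b (0.50 ± 0.08, limma adjusted p = 0.00376) and the eye gene pax6a (0.34 ± 0.07, adjusted p = 0.0216) were higher in the mixture than in PFOS70. Against Control these 2 differed by only 0.03 ± 0.08 and -0.12 ± 0.07 in the mixture. jun, serpinh1b, dnajb1b, her6, her9, foxg1b, pax6a, klf11a, nfil3-5 and nfil3-6 were chosen after their values were seen.

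**Figure D5:**
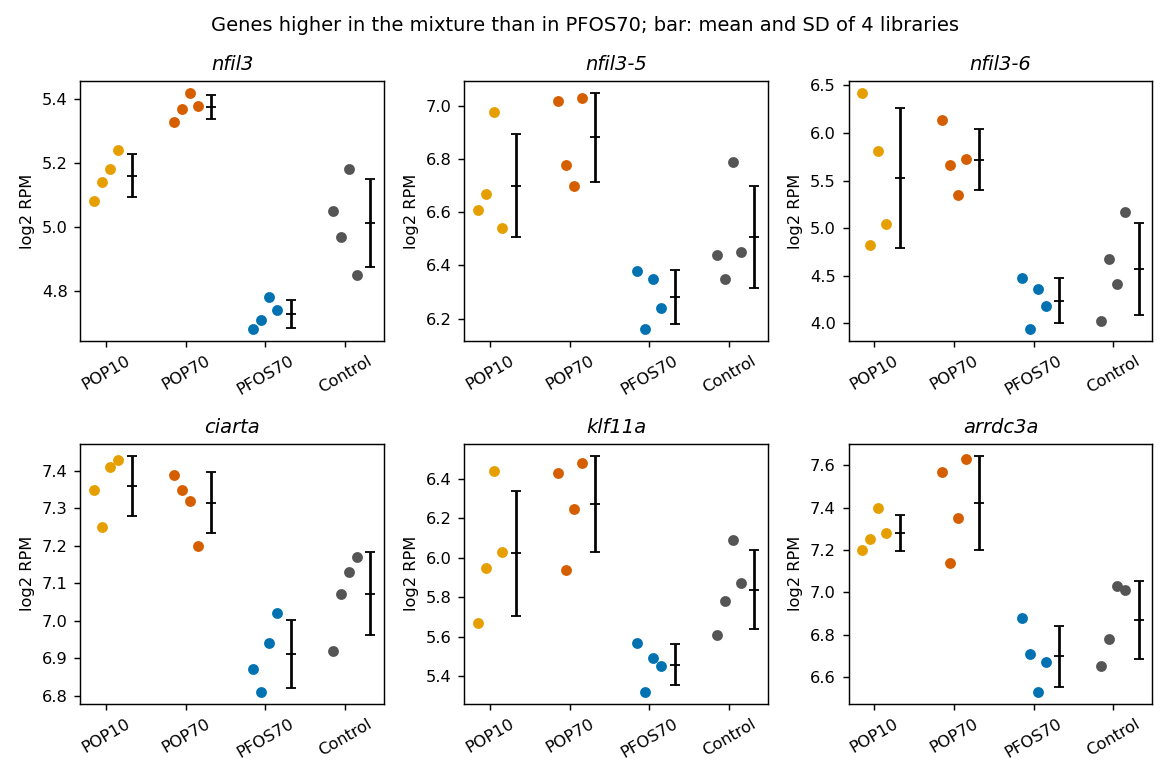
Levels in log2 RPM (vertical axis) of 6 genes that passed as higher in the mixture than in PFOS70, for each library of POP10, POP70, PFOS70 and Control, with the mean and SD of 4 libraries as a bar. The mixture libraries of nfil3 lie at 5.08 to 5.42 and the PFOS70 libraries at 4.68 to 4.78.

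Against PFOS10, 7676 genes (39.8%) passed by limma, 4579 higher and 3097 lower in the mixture. The split was 3407 higher and 4086 lower after quantile normalization, and 3582 and 5026 with equal medians, so its direction depended on scaling. lonrf1l (0.79 ± 0.06 higher), six3b (-0.83 ± 0.07) and fam46ab (-1.0 ± 0.11) were among them. The labels name no batch, and anything that sets the 4 PFOS10 libraries apart as a batch cannot be told apart from that exposure.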

How the data were processed

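The submitters' processing notes name GRCz11, STAR 2.5.4b, R 3.5.0, Trim Galore 0.4.5 and DESeq2, with no role or order. The deposited table gives log2 RPM per library for 48838 transcripts, and 0 reads are entered as 0.9 reads. RPM is not divided by transcript length. The counting step and its strand setting are not given in the sources used here. Whole reads were recovered from the log2 RPM steps for 100% of values of 1 to 1000 reads (tolerance 0.05 reads), and they served only for depth and voom.

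For each of 22851 genes the transcript of highest mean over the 20 libraries was kept, and the 19289 that reached 0 log2 RPM in 4 or more libraries were tested. No pseudocount was added, and the 0.9 reads make the folds of low genes too small. limma 3.58.1 in R 4.3.3 fitted 5 group means with 15 residual degrees of freedom and a mean-variance trend, and the pooled contrast was the mean of POP10 and POP70 minus Control. P-values were adjusted by Benjamini-Hochberg over all genes tested, at a threshold of 0.05. The fit was also run on simulated data with independent genes and 1 spread per gene over all 20 libraries. Such data cannot check how the calls depend on which libraries are fitted. The gene lists, the comparisons and the members were chosen with earlier results of these data known.

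Named genes were the called ones with non-overlapping groups, filled with the smallest p to 14 per direction (mean of at least 3 log2 RPM, no clone names), called list members, a fixed set, genes called at both levels and called genes that differed between levels. List members given as examples are those of small p, chosen after their values were seen. All 41 named genes matched a RefSeq name or synonym. Alternatives were other filters, damping by 16 RPM, other scalings, variance models and weights, voom, other transcript choices, other sets of libraries, a replicate block and leaving out each library. Results for some genes are not reported here.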

Additional observations from a re-analysis of the deposited data

Results flagged for a closer look

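Named genes, 9 in all, differed between the mixture and PFOS70 by a test of that difference. The log2 differences were 0.66 for lonrf1l, 1.58 for arrdc3b, 0.66 for arrdc3a, 0.63 for pfkfb4b, 0.43 for ciarta, 1.12 for slc16a6b, 0.54 for nfil3, -0.77 for fam46ab and -0.46 for mfsd4b (limma, adjusted p under the threshold). Over all genes, 65 passed against PFOS70 and 7676 against PFOS10.

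Single libraries stood far from the rest of their group in 10 of 168 groups examined, where chance alone gives about 1 in 20 for a single group. The pooled mixture was examined beside POP10 and POP70, and cyp24a1 was added after its values were seen. The groups are therefore not independent, and the 10 cannot be weighed against that rate. In POP10 these were, in log2 RPM, arrdc3b (6.92) and h1fx (7.48) in replicate 3, p2rx3b (3.36) and zmynd8 (5.63) in replicate 4, and mfsd4b (3.38) and atp2a1 (12.89) in replicate 2. In POP70 they were zmynd8 (4.96) in replicate 1, nr3c1 (6.76) in replicate 2 and cyp1b1 (2.32) in replicate 4. In Control it was cyp24a1 (7.01) in replicate 4.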

How the results depend on the processing

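The pooled count of 3 was 5 with 16 RPM added, 5 after quantile normalization, 1 with no variance trend and 0 with only the 12 mixture and Control libraries in the fit, whether POP10 and POP70 were kept apart or joined into 1 group of 8 (smallest adjusted p 0.0865 and 0.26). Leaving out 1 library gave 0 to 9 genes. lonrf1l passed in 23 of 27 alternatives, six3b and fam46ab in 15 each. lonrf1l did not pass when the lowest-numbered transcript stood for the gene. The count at both levels was 0 to 2 with 1 library left out and that between levels 0 throughout. Against PFOS70 the 65 genes became 132 after quantile normalization, 42 with no variance trend, 196 with array weights and 39 to 153 with 1 library left out (153 without POP70 replicate 2). Against PFOS10 the range over 22 alternatives was 5756 to 8804. Libraries of the same replicate number correlated at -0.186 to 0.235 once group means were removed (3 of 12 over 0.1). Libraries of different replicate numbers correlated at -0.461 to 0.357, a range that holds that of the same numbers. These values therefore do not show a pairing of the libraries by number. The replicate block gave 4 genes, with bhlhe22 added, and 2867 genes at an unadjusted p under 0.05, against 2509 without it. The cause of these shifts was not tested. Signs turned for nr3c1 (0.025 after quantile normalization, -0.0315 to 0.00556 with 1 library left out), pck1 (-0.16 to 0.60) and cyp3a65 (-0.26 to 0.46). Medians of 22 of 30 lists kept their sign in all 27 alternatives. Depth limits hsd3b1 and tnnc1a, with 10 or fewer reads in each Control library, and it was lower in POP70 than in Control.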
